A study of Homo sapiens with 15 samples.

Results

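A set of 10 noncoding host genes of small nucleolar RNAs was followed across 5 culture media in H1299 cells, a line established from a human lung carcinoma of the non-small cell type. The genes were GAS5, ZFAS1, SNHG1, SNHG5, SNHG6, SNHG7, SNHG8, SNHG12, SNHG15 and SNHG16. The rule names them by symbol and uses no measured value, although the list was drawn up with earlier results of these data known. Each symbol matched 1 Ensembl gene ID, so that 10 of the 58395 genes in the count table are described. After growth with serum, triplicate cells were washed and held for 12 h in RPMI without serum. The medium contained 5 mM glucose plus 4 mM NH4Cl (a salt that supplies ammonium), 5 mM glucose plus 4 mM glutamine (called both nutrients below), 5 mM glucose alone, 4 mM glutamine alone, or neither of these nutrients. No medium contained serum during that time, and the NH4Cl medium contained no glutamine. Each medium had 3 libraries of poly(A)-selected RNA, 15 in all.

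Small nucleolar RNAs (snoRNAs) guide the chemical modification of ribosomal RNA: box C/D snoRNAs direct ribose methylation and box H/ACA snoRNAs direct the conversion of uridine to pseudouridine. They are cut from introns of host transcripts. The spliced exons that remain of a noncoding host are known to be exported, to meet ribosomes at short reading frames and to be degraded by nonsense-mediated decay (NMD), a surveillance pathway that acts during translation, so their RNA is known to build up when translation or NMD slows. Many hosts are also known to begin with a run of pyrimidines at their start site (a terminal oligopyrimidine, or TOP, tract), as ribosomal protein genes do.

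Library totals lay between 14914127 and 19938691 counts, and the 10 host genes together held 0.0876% to 0.196% of them. Levels are given in CPM, the usual unit of counts scaled to a common library total, after adjustment by TMM, a method that assumes that most genes do not differ. The line's markers VIM, KRT8 and KRT18 had at least 2703 counts in every library. EPCAM, CDH1, the lung epithelium markers and the leukocyte, endothelial and fibroblast markers had at most 31 counts in any library. The medium with neither nutrient stood apart in composition, with TMM factors of 0.793 in its libraries against 1.006 to 1.086 in the others. With library totals as the only scaling, the median log2 change over all genes shifted by 0.44 for glucose against neither and by 0.34 for glutamine against neither, and changes against the medium with neither are therefore given with TMM and, where they differ in call or direction, under library totals too. The levels below are TMM-scaled, so the place of the medium with neither in each order rests on that scaling. The labels describe triplicate cells without naming separate cultures or days. The p-values thus refer to the spread among these libraries, part of which may be technical.

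Start sites are shown first because many hosts are known to begin with a run of pyrimidines. The word TATAA, that of a TATA box, was searched before the start as well. RefSeq windows (GRCh38.p14) were used for 8 of the 10 genes, all but SNHG6 and SNHG15. Each printed window covers 60 bases on the gene's own strand, from 40 bases before the listed start to the 20 bases that begin at it. Capitals mark TATAA between 40 and 20 bases before the start, and a run of C and T that opens with C at the start.
ZFAS1: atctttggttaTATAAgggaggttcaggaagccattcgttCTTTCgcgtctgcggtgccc
SNHG5: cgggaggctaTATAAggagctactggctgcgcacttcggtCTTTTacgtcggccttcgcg
SNHG7: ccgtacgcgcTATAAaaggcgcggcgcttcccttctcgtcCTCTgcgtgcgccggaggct
SNHG8: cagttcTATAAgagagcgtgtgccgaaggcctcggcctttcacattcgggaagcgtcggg
SNHG12: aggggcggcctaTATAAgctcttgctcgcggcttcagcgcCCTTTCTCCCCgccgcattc
SNHG1: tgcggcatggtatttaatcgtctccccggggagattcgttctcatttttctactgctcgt
These windows lie at chr20:49278602-49278661 on the plus strand for ZFAS1, chr6:85678714-85678773 on the minus strand for SNHG5, chr9:136728165-136728224 on the minus strand for SNHG7, chr4:118278722-118278781 on the plus strand for SNHG8, chr1:28581854-28581913 on the minus strand for SNHG12 and chr11:62855866-62855925 on the minus strand for SNHG1. TATAA stood 28 to 34 bases before the start in the first 5 genes printed. The word was searched on the gene's strand, where 5 of 8 host windows and 1372 of all 35116 RefSeq windows (3.91%) held it in that stretch. With its complement on the other strand counted too, the share of all windows was 4.72% and the host count stayed 5 of 8. An unbroken run of at least 4 C or T from a C at the start was present in ZFAS1, SNHG5, SNHG7 and SNHG12, 4 of 8 genes, against 5.45% of all windows. SNHG8 opened with a single such base and SNHG1, printed for contrast as the gene with the largest range across media, with 3. The windows of GAS5 and SNHG16, not printed, held neither feature. Both features together occurred in 4 of 8 host windows and in 49 of 35116 windows (0.140%). The start listed by RefSeq differed from that of GENCODE 29 by 0 to 1259 bases in these 8 genes. It differed by 163 bases for GAS5, by 464 for ZFAS1 and by 1259 for SNHG12, so the match describes 1 listed start of each gene.

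The genes fell into hosts of box C/D snoRNAs and hosts of box H/ACA snoRNAs by the snoRNA genes that GENCODE 29 (GRCh38) places inside them on the same strand. The annotation places 26 snoRNA genes there, among them SNORD22, SNORD25, SNORD26, SNORD27, SNORD28 and SNORD30 in SNHG1, SNORD12 genes in ZFAS1, SNORD50B in SNHG5, SNORD87 in SNHG6, SNORD1 genes in SNHG16, SNORA17 genes in SNHG7, SNORA24 in SNHG8, SNORA9 in SNHG15, and SNORA61, SNORA44, SNORA16A and the C/D gene SNORD99 in SNHG12. It lists none inside GAS5, which is known as a host of box C/D snoRNAs. Of the 26, 22 share exon bases with an annotated host transcript, and each of these 22 had 0 counts in all 15 libraries. The other 4, SNORD12C, SNORD12B, SNORD99 and SNORD1B, share no exon bases with their host and had at most 11 counts in a library. The labels and processing notes do not state how reads in shared exon bases were counted, so these zeros do not show that the snoRNAs were absent. The libraries were also poly(A)-selected, and host counts say nothing of the snoRNAs made from the introns.

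All 10 host genes passed the low-count filter, with 146 counts or more in every library. GAS5 (growth arrest specific 5, ENSG00000234741, chr1:173863900-173868882, minus strand, GRCh38) was first described as an RNA that builds up in growth-arrested mouse cells. Its level was 273, 275 and 287 CPM with glucose and NH4Cl, 159, 160.0 and 165 CPM with both nutrients, 288, 313 and 298 CPM with glucose alone, 494, 482 and 477 CPM with glutamine alone, and 284, 287 and 283 CPM with neither. Libraries with both nutrients lay below every other library and those with glutamine alone above every other one. The media with glucose and NH4Cl and with neither overlapped and did not pass (log2 -0.03 for NH4Cl minus neither, 95% interval -0.08 to 0.02, and 0.41 under library totals).

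SNHG1 (ENSG00000255717, chr11:62851988-62855914, minus strand), a host of box C/D snoRNAs, had the widest range. It stood at 271, 260.1 and 263 CPM with glucose and NH4Cl, 74.7, 75.2 and 74.5 CPM with both nutrients, 343, 344 and 344 CPM with glucose alone, 216, 213 and 207 CPM with glutamine alone, and 176, 167 and 173 CPM with neither. No libraries of different media overlapped, and the order ran from both nutrients at the bottom through neither, glutamine alone and glucose with NH4Cl to glucose alone at the top. The highest medium stood 4.59-fold above the lowest.

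ZFAS1 (ENSG00000177410, chr20:49278178-49295738, plus strand) is transcribed away from the start of ZNFX1 and is annotated as antisense. Its level was 67.8, 66.4 and 66.6 CPM with glucose and NH4Cl, 37.6, 35.8 and 35.8 CPM with both nutrients, 80.1, 82.6 and 74.5 CPM with glucose alone, 77.1, 76.9 and 81.9 CPM with glutamine alone, and 88.5, 80.9 and 85.4 CPM with neither. Libraries with both nutrients were lowest, those with glucose and NH4Cl came next, and the remaining 3 media overlapped with each other. Scaled by library totals alone, ZFAS1 was lower with neither than with glucose and NH4Cl, with glucose alone or with glutamine alone.

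SNHG5 (ENSG00000203875, chr6:85660950-85678748, minus strand), host of SNORD50 genes, was the most abundant host per length. It stood at 546, 527 and 551 CPM with glucose and NH4Cl, 303, 331 and 312 CPM with both nutrients, 530.4, 510.1 and 529 CPM with glucose alone, 638, 663 and 678 CPM with glutamine alone, and 644, 639.6 and 601 CPM with neither. The libraries formed 3 levels, with both nutrients low, the other media that held glucose in the middle, and the media without glucose high and overlapping. With totals as the only scaling, the medium with neither lay below the other media that held glucose, with log2 changes of 0.23 for glucose and NH4Cl and 0.17 for glucose alone, each minus neither.

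SNHG6 (ENSG00000245910, chr8:66921684-66926398, minus strand), host of SNORD87, had a narrow range. Its level was 125, 126 and 128 CPM with glucose and NH4Cl, 89.0, 93.0 and 92.5 CPM with both nutrients, 115, 116 and 109 CPM with glucose alone, 148, 142 and 139.9 CPM with glutamine alone, and 158, 167 and 159 CPM with neither. No libraries of different media overlapped, and the medium with neither nutrient was highest. Without TMM it was below glutamine alone (0.17 for glutamine minus neither) and below glucose with NH4Cl (0.10 for NH4Cl minus neither).

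SNHG16 (ENSG00000163597, chr17:76557766-76565348, plus strand), host of SNORD1 genes, differed from the rest. It stood at 52.7, 56.4 and 52.2 CPM with glucose and NH4Cl, 55.3, 53.3 and 52.9 CPM with both nutrients, 56.3, 57.1 and 55.1 CPM with glucose alone, 92.5, 95.2 and 93.8 CPM with glutamine alone, and 94.1, 91.8 and 94.1 CPM with neither. The libraries split into those with glucose, all low, and those without, all high, and media within each level overlapped.

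Among the hosts of H/ACA snoRNAs, SNHG7 (ENSG00000233016, chr9:136721366-136728184, minus strand) was at 48.2, 44.1 and 52.4 CPM with glucose and NH4Cl, 17.2, 16.5 and 16.7 CPM with both nutrients, 54.9, 56.6 and 57.2 CPM with glucose alone, 47.6, 43.4 and 47.5 CPM with glutamine alone, and 49.5, 55.8 and 51.1 CPM with neither. Both nutrients gave a single low level, and the means of the other 4 media lay between 46.2 and 56.2 CPM. Glucose alone stood above glutamine alone without overlap (log2 0.29). Under library totals SNHG7 was lower with neither than with glucose alone (0.55), glucose and NH4Cl (0.34) or glutamine alone (0.17), each minus neither. SNHG12 (ENSG00000197989, chr1:28578538-28583132, minus strand), host of both snoRNA classes, was at 24.1, 24.6 and 23.9 CPM with glucose and NH4Cl, 8.80, 8.70 and 7.90 CPM with both nutrients, 36.6, 37.5 and 33.7 CPM with glucose alone, 27.7, 24.4 and 25.5 CPM with glutamine alone, and 24.4, 24.6 and 25.5 CPM with neither. Glucose alone stood above all other media, both nutrients below all, and the 3 media between overlapped with no pair of them past the test.

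SNHG8 (ENSG00000269893, chr4:118278709-118279823, plus strand) was at 97.9, 94.0 and 101 CPM with glucose and NH4Cl, 54.7, 60.1 and 61.9 CPM with both nutrients, 104, 106 and 105 CPM with glucose alone, 135, 145 and 149 CPM with glutamine alone, and 105, 104 and 104 CPM with neither. As for GAS5, libraries with both nutrients were lowest and those with glutamine alone highest. SNHG15 (ENSG00000232956, chr7:44983023-44986961, minus strand) was at 24.7, 24.0 and 23.6 CPM with glucose and NH4Cl, 16.9, 17.6 and 18.0 CPM with both nutrients, 35.9, 35.1 and 34.0 CPM with glucose alone, 39.3, 43.2 and 43.4 CPM with glutamine alone, and 37.1, 42.0 and 36.7 CPM with neither. Its libraries with glucose and NH4Cl lay between those with both nutrients and those of the other 3 media.

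**Figure D1:**
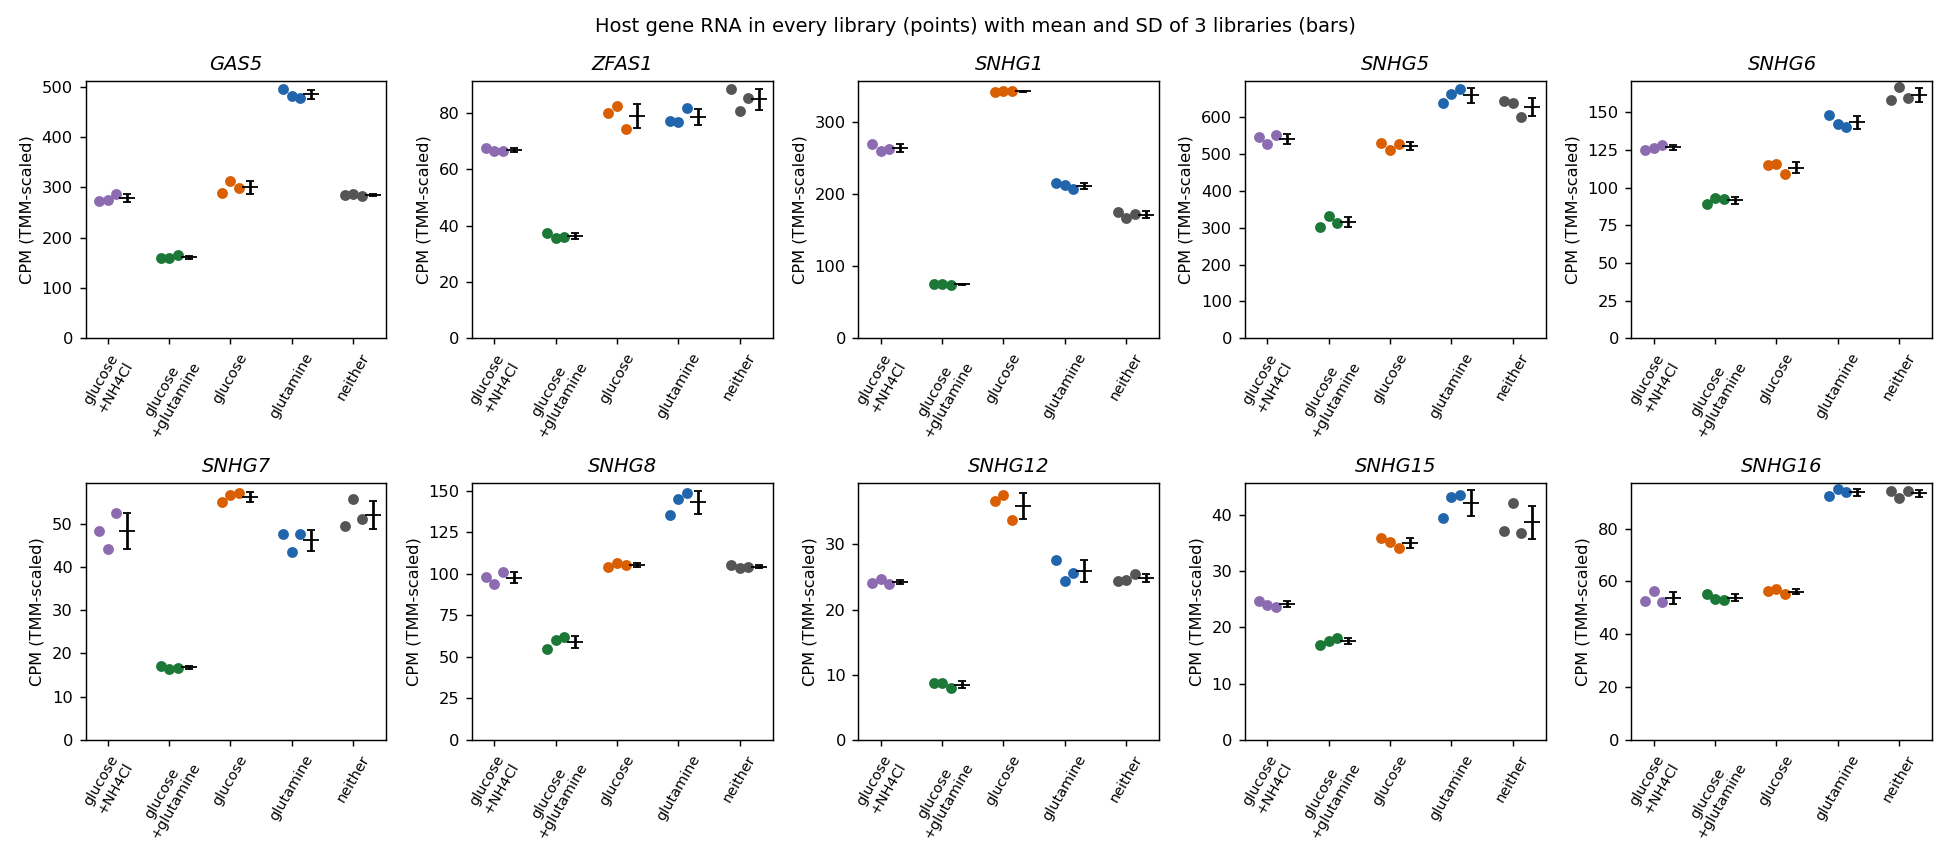
Level of each host gene in TMM-scaled CPM (vertical axes, from 0) in every library of the 5 media, with the mean and SD of 3 libraries beside the points. The libraries with both nutrients are lowest for 9 of 10 genes, while SNHG16 is at one low level in the 3 media with glucose. The lowest medium was not counted over all tested genes.

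Mean levels were lowest with both nutrients for 9 of 10 genes; for SNHG16 the media with glucose and NH4Cl and with both nutrients stood at 53.8 ± 2.32 and 53.8 ± 1.27 CPM (SD, n = 3 each). The highest mean was with glutamine alone for 5 genes (GAS5, SNHG5, SNHG8, SNHG15 and SNHG16), with glucose alone for 3 (SNHG1, SNHG7 and SNHG12) and with neither for 2 (ZFAS1 and SNHG6), of which both were lower with neither than with glutamine alone under library totals. Neither the lowest nor the highest medium was counted over all tested genes, so these counts have no background share beside them. Summed over the 10 genes, the level was 1526 ± 26.3 CPM with glucose and NH4Cl, 835 ± 17.3 CPM with both nutrients, 1647 ± 9.94 CPM with glucose alone, 1929 ± 14.3 CPM with glutamine alone and 1644 ± 27.1 CPM with neither (SD, n = 3 each). SNHG5 supplied the largest part of that sum in every medium. Per kilobase of exon merged over all annotated transcripts, with both nutrients, SNHG5 had 112 RPKM, SNHG6 73.4, SNHG8 63.8, GAS5 44.4, SNHG1 19.9, ZFAS1 16.2, SNHG16 10.0, SNHG15 4.80, SNHG7 3.87 and SNHG12 1.98 RPKM. This scale counts every annotated exon, in use in these cells or not, so it orders the genes only roughly.

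Adding glutamine to glucose set the medium with both nutrients against that with glucose alone. Host RNA fell: 9 of 10 genes were called lower and 0 higher by edgeR's quasi-likelihood test (Benjamini-Hochberg adjusted p under 0.05 over 16889 genes), where 33.7% of all tested genes were lower, 34.2% higher and 67.9% called either way. SNHG1 fell to 74.8 ± 0.329 CPM with both nutrients, against 343 ± 0.566 CPM with glucose alone (log2 -2.20 ± 0.0283 (SE), adjusted p = 1.56e-139). SNHG12 fell 4.25-fold (log2 -2.09 ± 0.0726) and SNHG7 fell 3.34-fold (-1.74 ± 0.0566). In these bulk libraries, fewer cells holding an RNA and less of it per cell cannot be told apart.

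ZFAS1 (-1.12 ± 0.0421), SNHG15 (-0.999 ± 0.0609), GAS5 (-0.89 ± 0.0253), SNHG8 (-0.84 ± 0.0362) and SNHG5 (-0.73 ± 0.0316) fell by intermediate log2 changes. SNHG6 fell by 0.31, to 91.5 ± 2.16 CPM with both nutrients, against 113 ± 3.87 CPM with glucose alone, and was not called against a 1.2-fold change (adjusted p = 0.0577). SNHG16 did not pass (log2 -0.06, 95% interval -0.14 to 0.02, adjusted p = 0.167). Libraries with both nutrients lay below those with glucose for the 9 called genes, and the groups did not overlap for 69.9% of all tested genes. The median log2 change of the 10 genes was -0.95, that of all tested genes 0.00.

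Adding glucose to glutamine gave lower host RNA for all 10 genes, SNHG16 included, where 33% of all tested genes were lower and 32.6% higher (65.6% called). With library totals alone the median over all genes shifted by 0.10 and the higher share of calls was 60.8%, against 49.7% with TMM, and all 10 host genes remained lower. GAS5 fell to 161 ± 3.11 CPM with both nutrients, against 484 ± 8.73 CPM with glutamine alone, a 3.01-fold change (log2 -1.59 ± 0.0247, adjusted p = 5.52e-123 by edgeR). SNHG12 fell 3.05-fold (-1.61 ± 0.077), SNHG1 2.83-fold (-1.50 ± 0.0293) and SNHG7 2.74-fold (-1.45 ± 0.0586).

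The smallest fall was that of SNHG6 (log2 -0.65 ± 0.0314), and SNHG16 fell to 53.8 ± 1.27 CPM with both nutrients, against 93.8 ± 1.33 CPM with glutamine alone (-0.80 ± 0.0369). SNHG8 (-1.28 ± 0.0346), SNHG15 (-1.26 ± 0.0588), ZFAS1 (-1.11 ± 0.0421) and SNHG5 (-1.06 ± 0.0313) lay between. Libraries with both nutrients lay below those with glutamine alone for all 10 genes; 68.2% of tested genes had groups that did not overlap. The median of the 10 genes was -1.27, and that of all tested genes was -0.01.

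**Figure D2:**
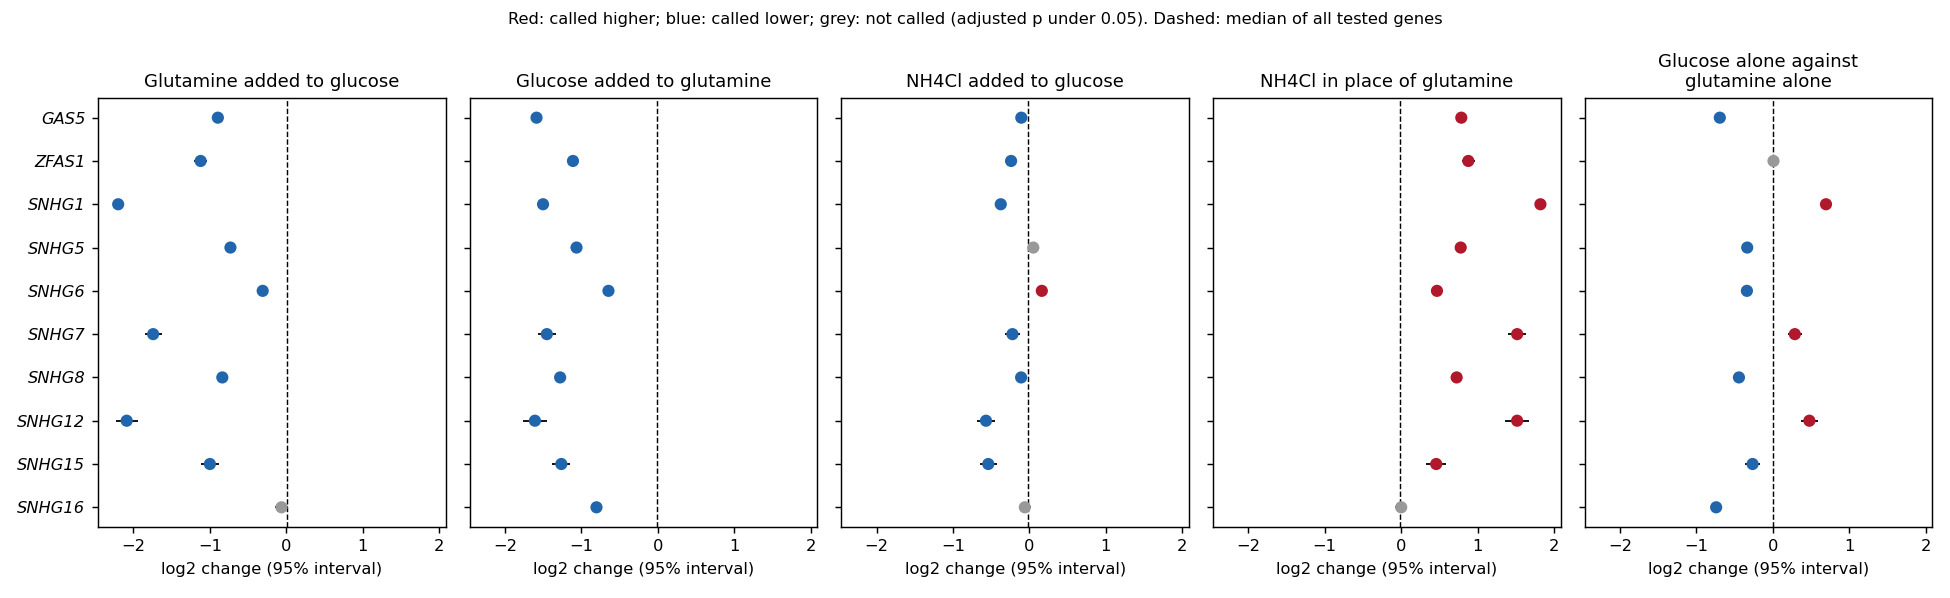
Log2 change of each host gene with its 95% interval (horizontal axes) in 5 comparisons, coloured by the edgeR call, with the median of all tested genes dashed. With the second nutrient added 9 and 10 of the 10 genes are lower, with NH4Cl in place of glutamine 9 are higher, and NH4Cl added to glucose moves the genes by -0.57 to 0.16.

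Whether glutamine acts alike with and without glucose was tested as an interaction, the log2 change of glutamine with glucose minus that without. It was negative and called for 9 of 10 genes, where 38% of tested genes were called negative and 36.8% positive (74.8% in all). Under library totals the positive share of all calls was 33.7%, against 49.2% with TMM, the median of all genes moved by -0.34, and all 10 host genes were called negative. SNHG1 fell by 2.20 with glucose and rose by 0.30 without it (interaction -2.50 ± 0.0394, adjusted p = 1.74e-124 by edgeR). GAS5 fell by 0.89 with glucose and rose by 0.77 without it (-1.66 ± 0.0348), and SNHG8 fell by 0.84 with glucose and rose by 0.46 without it (-1.29 ± 0.049). These 3 genes moved in opposite directions under both scalings. Of the genes called both with and without glucose, SNHG15 and SNHG5 did so too. Their rises without glucose were 0.12 and 0.07 with TMM, where libraries overlapped, and 0.47 and 0.41 under library totals.

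For SNHG12 the interaction was -2.15 ± 0.0992, for SNHG7 -1.56 ± 0.0762, for SNHG15 -1.12 ± 0.0811, for ZFAS1 -1.01 ± 0.0569 and for SNHG5 -0.80 ± 0.0438. SNHG7, ZFAS1 and SNHG6 fell with glutamine also without glucose (log2 -0.18, -0.11 and -0.17), directions that turned under library totals alone. The interaction of SNHG6 was -0.14 ± 0.0442 and was lost without the low-count filter (adjusted p = 0.102) and against a 1.2-fold change. SNHG16 did not pass (-0.07, 95% interval -0.18 to 0.04), but was called under library totals alone (-0.41). The median interaction of the 10 genes was -1.21, and that of all tested genes was -0.03.

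**Figure D3:**
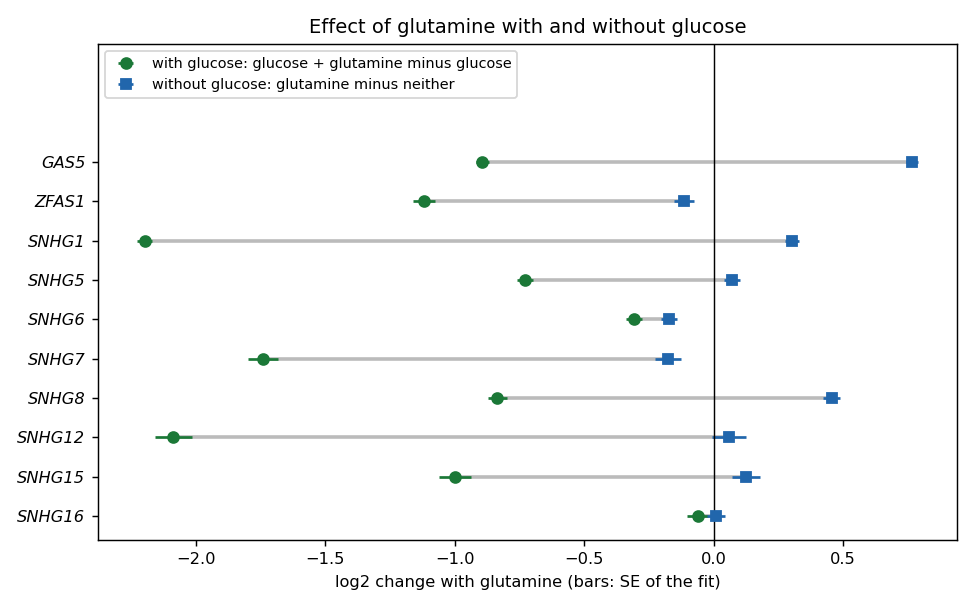
Log2 change with glutamine (horizontal axis, SE of the fit as bars) for each host gene, with glucose (circles) and without it (squares). With glucose 9 of 10 genes fell, and without glucose the changes lie between -0.18 for SNHG7 and 0.77 for GAS5.

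NH4Cl added to glucose asked whether ammonium acts on these RNAs when glutamine is absent. The changes lay between -0.57 and 0.16 on the log2 scale. Of the 10 genes, 7 were called lower and SNHG6 higher, where 16.9% of all tested genes were lower and 12.7% higher (29.6% called). SNHG12 fell to 24.2 ± 0.367 CPM with glucose and NH4Cl, against 35.9 ± 2.00 CPM with glucose alone (log2 -0.57 ± 0.0596, adjusted p = 3.6e-16 by edgeR). SNHG15 fell by 0.54 ± 0.0579 and SNHG1 by 0.38 ± 0.0247 on the log2 scale, and these 3 genes were the ones also called against a 1.2-fold change. That test called 228 of 16889 tested genes higher and 216 lower.

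ZFAS1 (-0.24 ± 0.038), SNHG7 (-0.22 ± 0.0467), GAS5 (-0.11 ± 0.0242) and SNHG8 (-0.11 ± 0.0337) fell less. SNHG8 did not pass without library 2 with NH4Cl (-0.08, adjusted p = 0.0992), and neither it nor GAS5 passed without the low-count filter. SNHG6 rose to 127 ± 1.68 CPM with glucose and NH4Cl, against 113 ± 3.87 CPM with glucose alone (0.16 ± 0.0312). SNHG5 (0.05, 95% interval -0.01 to 0.11) and SNHG16 (-0.06, 95% interval -0.14 to 0.02) did not pass, and their groups overlapped, while those of the other 8 did not. Groups did not overlap for 39.9% of tested genes. The median of the 10 genes was -0.17, and that of all tested genes was -0.01.

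NH4Cl in place of glutamine, with glucose in both media, left host RNA high. Of the 10 genes 9 were higher with NH4Cl, where 31.2% of all tested genes were higher and 33.4% lower (64.6% called). SNHG1 was at 265 ± 5.36 CPM with glucose and NH4Cl and 74.8 ± 0.329 CPM with both nutrients (log2 1.82 ± 0.0289, adjusted p = 1.11e-123 by edgeR). SNHG7 and SNHG12 were each higher by 1.52 (SE 0.0587 and 0.0787). ZFAS1, GAS5, SNHG5 and SNHG8 were higher by 0.88, 0.79, 0.78 and 0.73, and SNHG6 and SNHG15 by 0.47 and 0.46.

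SNHG16 had a log2 change of 0.00 (95% interval -0.08 to 0.08, adjusted p = 0.988). The 9 called genes had libraries with NH4Cl above those with both nutrients, and 67.5% of all tested genes had groups that did not overlap. The comparisons of glutamine and of NH4Cl with glucose share the 3 glucose libraries. Given first for glutamine and then for NH4Cl, each added to glucose, the log2 values were -2.20 and -0.38 for SNHG1, -2.09 and -0.57 for SNHG12, -0.999 and -0.54 for SNHG15, -1.74 and -0.22 for SNHG7 and -0.89 and -0.11 for GAS5.

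Glucose alone set against glutamine alone, each with one nutrient, split the host genes. By edgeR 3 genes were higher with glucose and 6 lower, where 33% of all tested genes were higher and 33.5% lower (66.5% called). Without TMM 59.4% of calls were higher, against 49.7% with TMM. SNHG1 was higher (343 ± 0.566 CPM with glucose alone and 212 ± 4.13 CPM with glutamine alone, log2 0.70 ± 0.025), as were SNHG12 (0.48 ± 0.0583) and SNHG7 (0.29 ± 0.0466). SNHG16 (-0.74 ± 0.0368), GAS5 (-0.69 ± 0.0233), SNHG8 (-0.44 ± 0.0316), SNHG6 (-0.34 ± 0.0305), SNHG5 (-0.33 ± 0.0303) and SNHG15 (-0.26 ± 0.0516) were lower. SNHG7 and SNHG15 were not called against a 1.2-fold change. ZFAS1 did not pass (0.01, 95% interval -0.06 to 0.08), although it did under library totals alone (0.10). Of the 4 genes with an annotated H/ACA snoRNA, SNHG7 and SNHG12 were higher with glucose and SNHG8 and SNHG15 lower. The genes with non-overlapping libraries were 3 above and 6 below, where 68.9% of all tested genes did not overlap.

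Glucose and NH4Cl set against glutamine alone gave 1 host gene higher and 7 lower, where 31.6% of all tested genes were higher and 32.8% lower (64.4% called). Under library totals alone the higher share of calls was 61.4%, against 49.1% with TMM. SNHG1 was higher (265 ± 5.36 CPM with glucose and NH4Cl and 212 ± 4.13 CPM with glutamine alone, log2 0.32 ± 0.0256). SNHG15, SNHG16 and GAS5 were lower (-0.80 each), as were SNHG8 (-0.55), SNHG5 (-0.28), ZFAS1 (-0.23) and SNHG6 (-0.18), the last 3 of which were not called against a 1.2-fold change. SNHG7 (0.07 ± 0.0483) and SNHG12 (-0.09 ± 0.0631) did not pass and their libraries overlapped, though SNHG7 passed without library 2 with NH4Cl (0.13) and under library totals alone (0.17).

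Set against the medium with neither nutrient, both nutrients together gave lower levels of all 10 genes under both scalings. With TMM 35.3% of all tested genes were lower and 37% higher (72.3% called), and the higher share of calls was 81.9% under library totals alone, against 51.2% with TMM. SNHG7 fell to 16.8 ± 0.354 CPM with both nutrients, against 52.1 ± 3.24 CPM with neither (log2 -1.63 ± 0.0599 with TMM, adjusted p = 5.72e-61 by edgeR, and -1.19 under library totals). SNHG12 (-1.55 and -1.11 under the same scalings), ZFAS1 (-1.23 and -0.78) and SNHG1 (-1.20 and -0.76) followed, and SNHG16 moved least (-0.79 and -0.35). The median of the 10 genes was -1.07, and that of all tested genes was 0.05.

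A single nutrient gave no common direction, and here the scaling decided many calls. For glucose against neither, 4 host genes were higher and 5 lower with TMM, where 39.9% of all tested genes were higher and 37.9% lower (77.8% called). Under library totals alone 8 were higher and 2 lower, and the higher share of all calls was 74.2%, against 51.3% with TMM. SNHG1 rose to 343 ± 0.566 CPM with glucose alone, against 172 ± 4.19 CPM with neither (log2 1.00 ± 0.0263 with TMM and 1.43 under library totals). SNHG12 rose under both scalings (0.54 and 0.97), and SNHG16 (-0.73 and -0.30) and SNHG6 (-0.51 and -0.07) fell under both.

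GAS5 (0.07) and SNHG7 (0.11) were called higher and ZFAS1 (-0.11) and SNHG15 (-0.14) lower by amounts under the shift between scalings, and ZFAS1 (0.33), SNHG15 (0.30) and SNHG5 (-0.26 with TMM and 0.17) turned under library totals. The call for GAS5 was lost without glucose library 2 (0.04, adjusted p = 0.214), and that for SNHG7 was lost there too (0.10), without glucose library 3 and without library 1 or 3 with neither (0.10, 0.07 and 0.10). The calls for ZFAS1 and SNHG15 were lost without glucose library 3 (-0.07 and -0.12). That for ZFAS1 was also lost without library 1 with neither (-0.08) and that for SNHG15 without library 2 with neither (-0.08). SNHG8 did not pass with TMM (0.01, 95% interval -0.06 to 0.08) and was called higher under library totals alone (0.45), where GAS5 and SNHG7 were at 0.51 and 0.55.

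For glutamine against neither, 5 host genes were higher and 3 lower with TMM, where 37% of all tested genes were higher and 35.8% lower (72.8% called). Under library totals alone all 10 were higher, and the higher share of all calls was 74.2%, against 50.8% with TMM. GAS5 rose to 484 ± 8.73 CPM with glutamine alone, against 285 ± 2.04 CPM with neither (log2 0.77 ± 0.0239 with TMM and 1.11 under library totals), and SNHG8 (0.46 and 0.80) and SNHG1 (0.30 and 0.65) rose under both scalings. SNHG15 (0.12) and SNHG5 (0.07) were called higher, each with overlapping libraries. Leaving out 1 library ended the call of SNHG15 for 4 libraries and that of SNHG5 for 4 libraries, and the call of SNHG5 was also lost with the replicate number as a block (adjusted p = 0.0736). ZFAS1 was called lower with overlapping libraries (-0.11), a call lost without library 1 with neither (-0.08). SNHG6 (-0.17) and SNHG7 (-0.18) were called lower too, and all 3 were called higher under library totals alone (0.23 for ZFAS1 and 0.17 for each of the others). SNHG12 (0.06, 95% interval -0.07 to 0.19) and SNHG16 (0.01, 95% interval -0.06 to 0.08) did not pass with TMM and were called higher under library totals alone (0.40 and 0.35), where SNHG15 and SNHG5 were at 0.47 and 0.41.

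For glucose and NH4Cl against neither, SNHG1 was higher and 7 genes were lower with TMM, where 39.6% of all tested genes were higher and 37.9% lower (77.5% called). Under library totals alone 8 were higher and 2 lower, and the higher share of all calls was 75.5%, against 51.1% with TMM. SNHG1 (0.62 and 1.07) rose under both scalings, and SNHG15 (-0.68 and -0.23) and SNHG16 (-0.79 and -0.35) fell under both. ZFAS1 (-0.35), SNHG6 (-0.35), SNHG5 (-0.21), SNHG7 (-0.11) and SNHG8 (-0.10) were lower with TMM and higher under library totals (0.10, 0.10, 0.23, 0.34 and 0.35 in the same order). Without library 2 with NH4Cl the calls for SNHG7 (-0.05) and SNHG8 (-0.07) were lost, and that for SNHG7 also without library 2 with neither (-0.07). GAS5 and SNHG12 did not pass with TMM (-0.03 each) and were called higher under library totals (0.41 each). GAS5 was called lower with TMM without library 3 with NH4Cl (-0.06).

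Several host genes share exon bases with a gene on the opposite strand, and no source used here states whether reads were counted by strand, so their counts could hold reads of the partner. The shared bases made up 30.57% of the exon bases of SNHG16 (AC015802.6), 29.27% of SNHG6 (MCMDC2), 25.18% of SNHG7 (FAM69B), 11.1% of ZFAS1 (ZNFX1), 1.16% of GAS5 (GAS5-AS1) and 0.19% of SNHG12 (TRNAU1AP). AC015802.6 had at most 5 counts in a library. With glutamine added to glucose, FAM69B (0.59 ± 0.107) and TRNAU1AP (0.45 ± 0.052) rose where SNHG7 and SNHG12 fell, while ZNFX1 fell by 0.21 ± 0.038, less than ZFAS1. MCMDC2 did not pass (-0.32 ± 0.161) and was at 3.32 CPM with both nutrients and 4.16 CPM with glucose alone. How much these partners add to the host counts was not tested.

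Over the 15 libraries the host genes were compared by Pearson correlation of log2(CPM + 1), given as a description because libraries of 1 medium share their treatment. The 45 pairs had a median r of 0.808, between 0.0426 for SNHG1 with SNHG16 and 0.981 for GAS5 with SNHG8. Next came SNHG7 with SNHG12 (0.971) and ZFAS1 with SNHG7 (0.960). Against the mean of the other 9 genes, SNHG5 had an r of 0.976 and ZFAS1 0.969, while SNHG1 had 0.724 and SNHG16 0.587. Of 11271 other genes with at least 5 CPM on average, those most like the mean of the 10 host genes were EEF2 (r = 0.991), RSL24D1 (0.989), SAT1 (0.986), CCNB1IP1 (0.985), CDV3 (0.984) and SERP1 (0.984). EEF2, which encodes a translation elongation factor, was at 5122 ± 59.2 CPM with glucose and NH4Cl, 3865 ± 59.7 CPM with both nutrients, 5265 ± 73.5 CPM with glucose alone, 5999 ± 37.6 CPM with glutamine alone and 5788 ± 53.7 CPM with neither (SD, n = 3 each).

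Other noncoding hosts gave mixed directions. Of all tested genes, 33.7% were lower and 34.2% higher with glutamine added to glucose, and 33% were lower and 32.6% higher with glucose added to glutamine. Of 19 listed, 16 were tested, SNHG18 and SNHG22 were too low and SNHG30 had no matching ID; the list also holds TAF1D, a host that encodes a protein. With glutamine added to glucose 8 fell and 4 rose (median log2 -0.47), and with glucose added to glutamine 8 fell and 3 rose (median -0.09). SNHG17 fell to 14.3 ± 0.621 CPM with both nutrients, against 61.6 ± 2.71 CPM with glucose alone (-2.10 ± 0.0559), and SNHG32 (-0.76 ± 0.0249) and SNHG29 (-0.48 ± 0.0225) fell. SNHG10 (0.80 ± 0.0991) and SNHG19 (0.35 ± 0.0622) rose. SNHG29 and SNHG32 stand in the annotation under the older symbols LRRC75A-AS1 and C6orf48.

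Protein-coding hosts are those whose spliced RNA is an mRNA, and many of them encode ribosomal proteins or translation factors. With glutamine added to glucose 23 of 40 fell and 6 rose (median -0.07), where 33.7% of all tested genes were lower and 34.2% higher. HSPA9, which encodes a mitochondrial chaperone, fell by 1.19, EIF4A2, an initiation factor gene, by 0.61 and EEF2 by 0.45. HSPA8, a cytosolic chaperone gene (1.37 ± 0.0145), and NOP56, a C/D snoRNP protein gene (0.41 ± 0.0258), rose. With glucose added to glutamine 39 of 40 fell, where 33% of all tested genes were lower (median -0.36), led by HSPA9 (-1.50), EIF4A2 (-1.22) and EEF2 (-0.63).

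Genes of the proteins that package snoRNAs were counted in the same way. With glutamine added to glucose, of 17 genes of snoRNP proteins and their assembly 11 rose and 4 fell (median 0.18), where 34.2% of all tested genes were higher and 33.7% lower, with RUVBL2 (0.68) and RUVBL1 (0.35), which encode assembly ATPases, and NOP56 (0.41) higher, and NOP58 (-0.47) and DKC1 (-0.30), which encode the C/D core protein and the pseudouridine synthase, lower. With glucose added to glutamine 8 fell and 4 rose (median -0.15), where 33% of all tested genes were lower and 32.6% higher.

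Of 21 genes of NMD and exon junction factors 15 fell and 3 rose with glutamine added to glucose (median -0.33), where 33.7% of all tested genes were lower and 34.2% higher. SMG1, the kinase gene of NMD, fell to 158 ± 1.33 CPM with both nutrients, against 269 ± 6.1 CPM with glucose alone (-0.77 ± 0.0271), and ETF1 (-0.58) and SMG9 (-0.59) fell. SMG8 (0.47) and EIF4A3 (0.21) rose. With glucose added to glutamine 11 fell and 4 rose (median -0.11), where 33% of all tested genes were lower and 32.6% higher. With NH4Cl added to glucose 11 fell and 0 rose (median -0.10), where 16.9% of all tested genes were lower and 12.7% higher.

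Coding mRNAs known as NMD targets are also stress-response genes, and several of them were chosen with earlier results of these data known. With glutamine added to glucose 8 of 11 fell and 0 rose (median -1.82), where 33.7% of all tested genes were lower and 34.2% higher. With glucose added to glutamine 10 fell and MAP3K14 rose (0.86), where 33% were lower and 32.6% higher. ATF4, the transcription factor gene of the amino acid response, fell to 173 ± 0.956 CPM with both nutrients, against 611 ± 11.2 CPM with glucose alone. TRIB3 fell by 4.46 and DDIT3 by 4.05. With NH4Cl added to glucose 9 fell and CDKN1A rose (0.19), with a list median of -0.26, where 16.9% of all tested genes were lower and 12.7% higher.

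**Figure D4:**
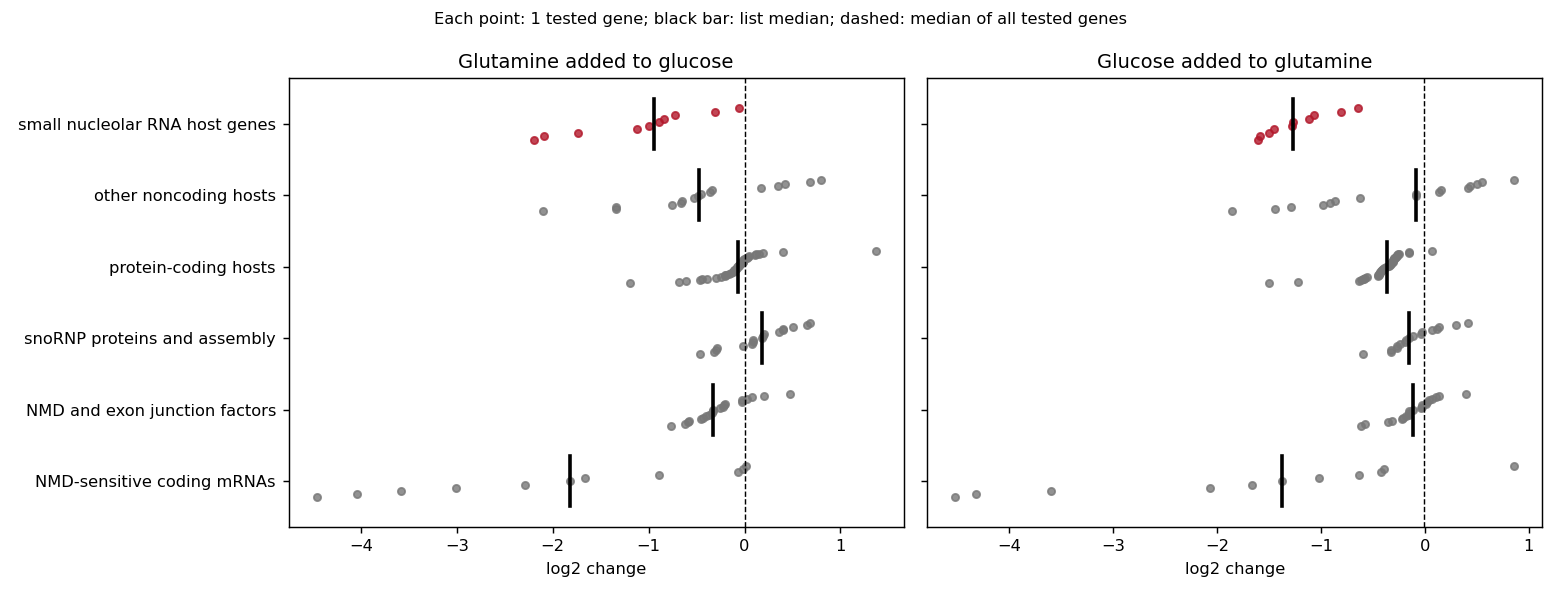
Log2 change of every tested gene (points) in the 10 host genes and 5 other lists, with list medians (bars) and the median of all tested genes (dashed), for glutamine added to glucose and glucose added to glutamine. The 10 host genes lie at medians of -0.95 and -1.27, the other noncoding hosts at -0.47 and -0.09 and the protein-coding hosts at -0.07 and -0.36.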

How the data were processed

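RNA of 15 libraries, 3 per medium, was poly(A)-selected and prepared with a directional kit, per the labels' protocols. The authors deposited 1 table of raw counts per Ensembl gene; HISAT2 2.1.0, featureCounts of Subread 1.5.1 and GRCh38.p12 are named in the submitters' processing notes. Whether counting used strand, and how reads with several matches were handled, is not stated in those notes or the labels. Of 58395 gene IDs, 58275 were in the GENCODE 29 annotation and 120 were not.

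Counts were analysed in R 4.3.3 with edgeR 4.0.16 and limma 3.58.1: filterByExpr (16889 genes kept), TMM scaling, 1 fit over the 5 media and two-sided robust quasi-likelihood F tests, with Benjamini-Hochberg adjustment over all tested genes and a threshold of 0.05. SE is the absolute log2 change over the square root of F. Alternatives were DESeq2 1.42.0 (Wald test), its size factors in edgeR, library totals alone, other low-count filters, the compared media alone, a test against a 1.2-fold change, the replicate number as a block and each library left out. RPKM used TMM-scaled totals.

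The members and lists were chosen with earlier results of these data known. From each other list up to 3 called genes in the main direction and 2 in the other were named by smallest p, with at least 5 CPM on average, and the 6 other genes most like the members' standardised mean. On simulated data for glutamine added to glucose over 16889 genes, 21, 31, 42 and 49 of 50 genes changed by 1.2, 1.5, 2 and 4-fold were called, and 5 of 16689 unchanged ones. In the measured comparison 67.9% of tested genes were called, a far larger share than was changed in the simulation. The simulated figures therefore do not give the recovery or false calls of that comparison. Library pairs of a medium differed by chi-square per degree of freedom of 1.22 to 2.40, and 0 of 15 pairs were identical. The pairs with glucose library 2 were at 2.40 and 2.35, glucose libraries 1 and 3 at 1.29, and pairs of the other media at up to 1.60. A gene at 0 in a library of this depth could hold up to 3 counts, which covers counting error only. One gene that overlaps a host gene is not reported here.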

Additional observations from a re-analysis of the deposited data

Results flagged for a closer look

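The change with glutamine differed between media with and without glucose for 9 of the 10 host genes, by the interaction term of edgeR's quasi-likelihood fit (adjusted p under 0.05), where 74.8% of all tested genes were called. The difference, glutamine's log2 change with glucose minus that without, was -2.50 for SNHG1, -2.15 for SNHG12, -1.66 for GAS5, -1.56 for SNHG7, -1.29 for SNHG8, -1.12 for SNHG15, -1.01 for ZFAS1, -0.80 for SNHG5 and -0.14 for SNHG6. TMM factors were 0.793 in the libraries with neither nutrient, against 1.006 to 1.086 elsewhere. Under library totals alone the differences were more negative for each of the 9 genes, between -2.84 for SNHG1 and -0.47 for SNHG6.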

How the results depend on the processing

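The counts of host genes called with glutamine added to glucose (9 lower), glucose added to glutamine (10 lower), both nutrients against neither (10 lower), NH4Cl in place of glutamine (9 higher) and the interaction (9 negative) stayed within 1.5 times under every alternative run and were the same with each library left out. In the main fit 33.7%, 33%, 35.3%, 31.2% and 38% of all tested genes were called in those directions, in the same order. Small changes moved, and counts over all tested genes (16889 in the main fit) stand in brackets. With NH4Cl added to glucose, 0 host genes were higher (228) and 3 lower (216) against a 1.2-fold change. In a fit of the compared media alone 2 were higher (2482). For glucose against neither, library totals gave 8 higher and 2 lower (10145 and 3533), and the 1.2-fold test 2 and 2 (5506 and 5072). No filter and the DESeq2 Wald test each gave 2 higher (6642 and 6294). Leaving out 1 library gave 2 to 4 higher (6471 to 6626) and 3 to 5 lower (6223 to 6308). For glutamine against neither, library totals gave 10 higher and 0 lower (9531 and 3312), and the 1.2-fold test 3 and 0 (4790 and 4369). DESeq2 size factors, no filter and the DESeq2 Wald test each gave 3 higher (6021, 6089 and 5679). Leaving out 1 library gave 3 to 5 higher (5976 to 6049) and 2 to 3 lower (5826 to 5910). For glucose and NH4Cl against neither, library totals gave 8 higher and 2 lower (10270 and 3325). The 1.2-fold test gave 4 lower (4956), and leaving out 1 library 5 to 8 lower (6224 to 6314).

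Library totals alone turned the sign of ZFAS1 (0.33), SNHG5 (0.17) and SNHG15 (0.30) for glucose against neither, of ZFAS1 (0.23), SNHG6 (0.17) and SNHG7 (0.17) for glutamine against neither, and of GAS5 (0.41), ZFAS1 (0.10), SNHG5 (0.23), SNHG6 (0.10), SNHG7 (0.34), SNHG8 (0.35) and SNHG12 (0.41) for glucose and NH4Cl against neither, where the median of all genes moved by 0.34 to 0.45; SNHG12 was at 0.012 for glucose and NH4Cl against glutamine alone. Log2 changes near 0 also changed sign: SNHG8 in glucose against neither (-0.0083 with DESeq2 size factors, -0.0082 with the DESeq2 Wald test, -0.024 with no filter, -0.0011 to 0.017 with 1 library left out), SNHG16 in glutamine against neither (-0.017 with DESeq2 size factors, -0.017 with the DESeq2 Wald test, -0.00078 with no filter, -0.0059 to 0.016 with 1 library left out), ZFAS1 in glucose against glutamine (-0.019 with no filter, -0.025 to 0.047 with 1 library left out) and SNHG16 with NH4Cl in place of glutamine (-0.036 to 0.022 with 1 library left out). Apart from the scaling, the cause was not tested.

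Over all tested genes the 1.2-fold test gave 3814 higher and 3603 lower with glutamine added to glucose (5783 and 5684 without it), 228 and 216 with NH4Cl added to glucose (2146 and 2852), 3045 and 3371 with NH4Cl in place of glutamine (5276 and 5642), 3317 and 3168 with glucose added to glutamine (5502 and 5571) and 3386 and 3305 for glucose against glutamine (5576 and 5650). No filter gave 1834 lower with NH4Cl added to glucose. Library totals gave 10145 higher and 3533 lower for glucose against neither, 9531 and 3312 for glutamine, 10866 and 2405 for both nutrients and 10270 and 3325 for glucose and NH4Cl. Replicate numbers did not pair the libraries (median correlation of same-numbered deviations -0.000938 over 30 pairs, and for 4 of 15 libraries the best correlation was with the same number); with the replicate block SNHG5 in glutamine against neither was lost (0.07, adjusted p = 0.0736 by edgeR) and no other call of a host gene changed.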
